A study of Homo sapiens with 9 samples.

Results

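Expression of 9 genes of folate and deoxynucleotide synthesis was examined in A2780 cells, an established human ovarian carcinoma cell line, after treatment with DIG-MSK, an analogue of the antibiotic mithramycin that binds C/G-rich DNA. The genes were SLC19A1, TYMS, MTHFD1, MTHFD2, SHMT1, SHMT2, RRM1, RRM2 and TK1, and they were taken as the gene probes of the array annotated with a RefSeq transcript of any of them. They had 11 of the 42405 gene probes and made up 9 of the 21813 genes tested. Every one of the 11 probes was well above background on all 9 arrays. RNA came from 3 untreated cultures, 3 cultures given 8 nM DIG-MSK and 3 given 80 nM DIG-MSK for 24 h, each hybridized to its own single-color array, and the untreated cells received no agent. All cultures were of the same line, and the study's methods describe them as independent biological replicates.

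Folates carry single carbon units between metabolites and are needed to build purines and thymidylate. The reduced folate carrier SLC19A1 brings reduced folates and antifolate drugs such as methotrexate into the cell. SHMT1 in the cytosol and SHMT2 in mitochondria pass the side-chain carbon of serine to tetrahydrofolate, and MTHFD1 and MTHFD2, again cytosolic and mitochondrial, interconvert the products. Thymidylate synthase, TYMS, uses one of these folates to methylate dUMP and is the target of fluoropyrimidine drugs. Ribonucleotide reductase, whose large subunit is RRM1 and whose small subunit is RRM2 or RRM2B, makes deoxynucleotides from ribonucleotides, while thymidine kinase 1, TK1, recovers thymidine. TYMS, RRM1, RRM2 and TK1 are known for higher expression in S phase.

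The level of a gene is given throughout as log2 of its processed intensity relative to the 75th percentile of the same array, so that 0 is that percentile, and levels are compared between arrays for the same probe only. A gene passed the test, and is said to have risen or fallen, at a Benjamini-Hochberg adjusted p under 0.05 in limma over all 21813 genes. The arrays of untreated cells and of 8 nM DIG-MSK lay on slide 1, and all 3 arrays of 80 nM DIG-MSK on slide 2, which was scanned separately. For every comparison with 80 nM the concentration, the slide and the scan therefore cannot be told apart. The mean net signal of negative controls was 31.1 to 38.6 on the arrays of slide 1 and 22.1 to 22.7 on those of slide 2. The array of 8 nM replicate 2 had the fewest gene probes well above background, 24800, against 25139 to 27123 on the others. Of 8 epithelial or Müllerian markers, KRT8, KRT18, KRT19 and EPCAM were well above background on all 9 arrays, PAX8 on 3, and CDH1, WT1 and MUC16 on 0; of 6 markers of other cell types, PTPRC, CD14 and DCN were so on all 9, CD3E on 3, and PECAM1 and VWF on 0. The summed linear level of those 6, as multiples of the 75th percentile, was 0.375 to 0.490 in untreated cells, 0.346 to 0.471 at 8 nM and 0.240 to 0.303 at 80 nM. The summed level of the 8 epithelial or Müllerian markers was 3.20 to 3.31 in untreated cells. It was 3.45 to 3.68 at 8 nM and 3.31 to 3.64 at 80 nM. DCN fell at 80 nM (-1.39, adjusted p = 0.0011). EPCAM rose at 8 nM (0.90, adjusted p = 0.029) and fell at 80 nM (-0.93, adjusted p = 0.0065). KRT8 rose at 80 nM (0.30, adjusted p = 0.011). KRT18, KRT19, PTPRC and CD14 did not pass at either concentration. The part of the markers in the results was not tested. In RNA from whole cultures, fewer cells expressing a gene and less RNA per cell cannot be told apart.

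At 8 nM, the carrier SLC19A1 fell, and none of the other members passed. At 80 nM, SLC19A1 was lower still on the probe used for it but not on its second probe (-0.01 against untreated cells), while SHMT1, RRM2, TYMS, MTHFD1 and TK1 rose. The counts at 8 nM were thus 0 risen, 1 fallen and 8 not passing, where 13.6% of all genes passed (7.92% rose and 5.72% fell). At 80 nM they were 5 risen, 1 fallen and 3 not passing, where 59% of all genes passed (33.3% rose and 25.7% fell), so the share of members that passed was near that of all genes. The median change of the 9 members was -0.20 at 8 nM and 0.33 at 80 nM on the log2 scale, against -0.06 and 0.08 over all genes tested. The study's methods called a gene at a fold of 1.5 or more, or of 0.67 or less, when its unadjusted p was below 0.05. By that rule SLC19A1 was down at 8 nM, where 7.09% of all genes were called (4.25% up and 2.84% down). At 80 nM SHMT1 and RRM2 were up and SLC19A1 was down, where 35.1% of all genes were called (18.8% up and 16.3% down).

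**Figure D1:**
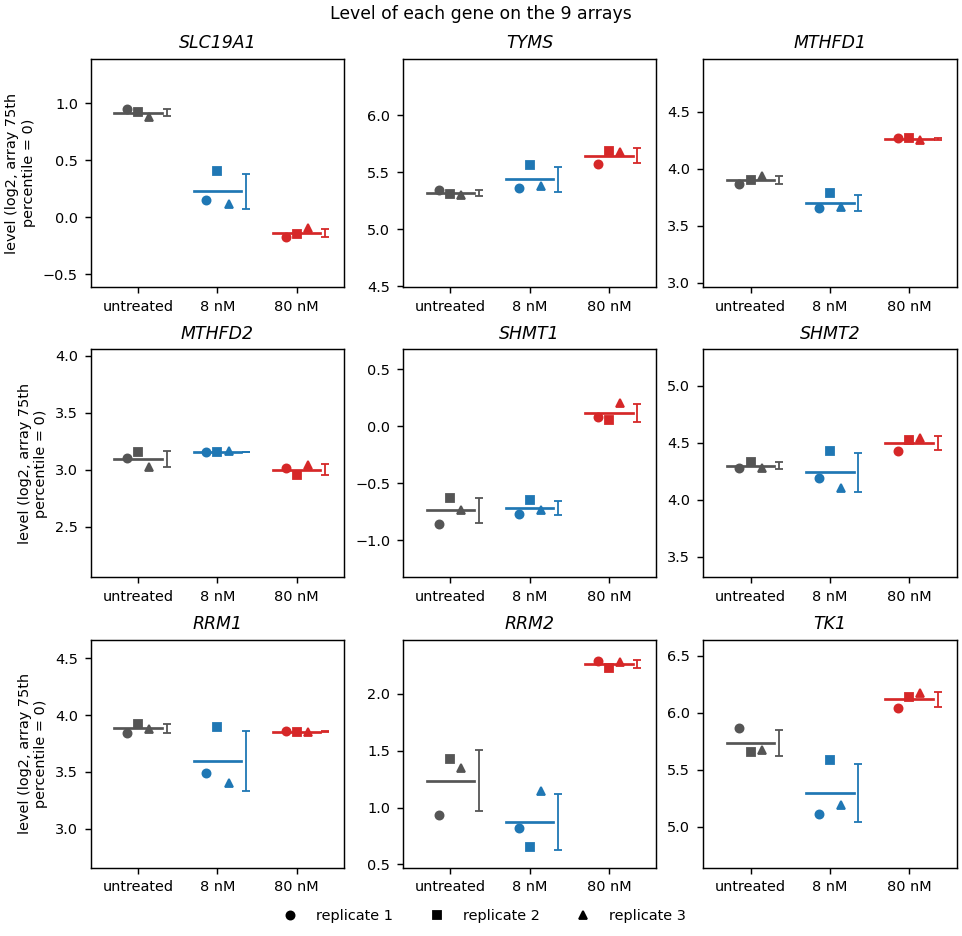
Level of each of the 9 genes on each array (log2, the array's 75th percentile set to 0; each panel spans the same number of log2 units) in untreated cells and at 8 and 80 nM DIG-MSK. Points are the 3 arrays of a group, by replicate number, the line is their mean and the bar beside it the SD. On the probe used, the SLC19A1 arrays step down with concentration, unlike on its second probe, which is not shown here. The SHMT1 and RRM2 arrays at 80 nM lie above all others.

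The 80 nM group was also compared directly with the 8 nM group, which shares its arrays with the comparisons above. Here 6 members rose (TYMS, MTHFD1, SHMT1, SHMT2, RRM2 and TK1), 1 fell (SLC19A1) and 2 did not pass (MTHFD2 and RRM1), with 57.5% of all genes passing (34.6% rose and 22.9% fell). The study's fold rule called SHMT1, RRM2 and TK1 up and no member down, where it called 33.6% of all genes (19.4% up and 14.2% down). The calls for TYMS and SHMT2 were close to the threshold and are given below with their limits.

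**Figure D2:**
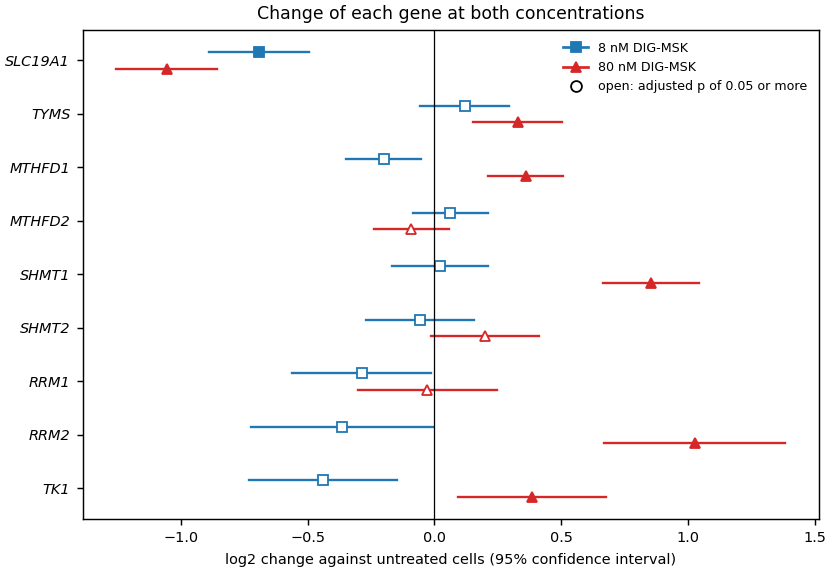
Log2 change of each gene against untreated cells at 8 nM (blue squares) and 80 nM (red triangles) DIG-MSK, with 95% confidence intervals from limma on 9 arrays. Filled symbols passed at an adjusted p under 0.05; at 8 nM only the SLC19A1 symbol is filled, and at 80 nM those of SLC19A1, TYMS, MTHFD1, SHMT1, RRM2 and TK1 are.

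Scaling decided several of these calls. When each array was scaled to the 10 spike-in probes instead of its 75th percentile, the all-gene median change at 80 nM moved from 0.08 to -0.20, and 73.4% of the genes that passed fell, against 43.5%. At 8 nM the median moved from -0.06 to 0.02 and the share that fell from 41.9% to 6.82%, and between the concentrations from 0.12 to -0.24 and from 39.8% to 80%. With that scaling SLC19A1 still fell at 80 nM (log2 change -1.33, adjusted p = 0.00024), but its change at 8 nM did not pass (-0.61, adjusted p = 0.22). The changes of SHMT1, RRM2, TK1, MTHFD1 and TYMS at 80 nM stayed positive, at 0.58, 0.75, 0.11, 0.08 and 0.05, with adjusted p between 0.071 and 0.88, so that none of them passed. The log2 spike-in level relative to the 75th percentile differed between arrays of a group. It was 2.22, 1.79 and 2.06 in untreated cells, 1.81, 2.34 and 1.66 at 8 nM, and 2.24, 2.32 and 2.34 at 80 nM. This scaling thus brought in a spread shared by all genes, and its part in the lost calls was not tested. Relative to the median gene, a difference that scaling an array by a constant does not alter, SLC19A1 changed by -0.63 at 8 nM and -1.13 at 80 nM, SHMT1 by 0.78 and RRM2 by 0.95 at 80 nM.

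SLC19A1 was read by a probe for NM_194255 and fell at both concentrations. Its level was 0.95, 0.92 and 0.88 in untreated cells, 0.16, 0.41 and 0.12 at 8 nM, and -0.17, -0.14 and -0.10 at 80 nM. The 3 groups did not overlap, and replicate 2 was the highest of the 8 nM arrays. Against untreated cells SLC19A1 fell by 0.69 on the log2 scale at 8 nM (SE 0.09, adjusted p = 0.002, 1.61-fold lower) and by 1.06 at 80 nM (SE 0.09, adjusted p = 2.1e-05, 2.08-fold lower). From 8 to 80 nM it fell by a further 0.36 (adjusted p = 0.0071). With untreated and 8 nM replicates paired by number, the fall at 8 nM had an adjusted p of 0.046.

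The array held a second SLC19A1 probe, for NM_001205206, and the probes disagreed at 80 nM. On the second probe the level was -1.54, -1.77 and -1.53 in untreated cells, -2.41, -2.40 and -2.26 at 8 nM, and -1.63, -1.59 and -1.64 at 80 nM. All 8 nM arrays thus lay below both other groups, which overlapped. The change was -0.74 at 8 nM (95% confidence interval -0.94 to -0.55, adjusted p = 0.0015), and -0.01 at 80 nM (interval -0.20 to 0.19, adjusted p = 0.95). The mean of the 2 probes fell by 0.53 at 80 nM against untreated cells, and it was 0.19 higher at 80 than at 8 nM (adjusted p = 0.04), opposite to the probe for NM_194255. The second probe alone was 0.74 higher at 80 than at 8 nM (adjusted p = 0.00017). The fall at 8 nM was therefore seen on both probes and the further fall at 80 nM on 1 of them. Which transcripts each probe can detect was not tested.

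**Figure D3:**
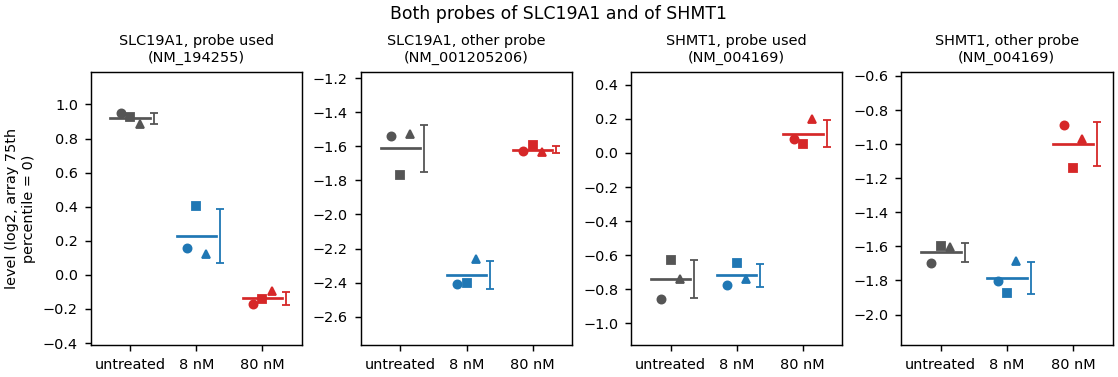
Levels (log2, the array's 75th percentile set to 0) of both probes of SLC19A1 and both probes of SHMT1 on the 9 arrays; points are arrays by replicate number, lines means and bars SDs. The second SLC19A1 probe is low at 8 nM and overlaps the untreated arrays at 80 nM, while both SHMT1 probes are high at 80 nM.

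The promoters are shown because DIG-MSK binds C/G-rich DNA and the study asked about the binding of Sp1, a factor that recognizes GC boxes. RefSeq (GRCh38.p14) lists 4 starts for SLC19A1, on the minus strand of chromosome 21, and the 250 bases before each start were searched for GGGCGG on either strand. The farthest upstream start had 0 matches and a G+C content of 47.2%, and the start with the most matches had 4 and 82.8%, against a median of 58.0% over 35116 promoters. Its remaining starts had 1 match and 65.2%, and 0 matches and 77.6%. At least 1 match was present in 42.6% of those promoters, and 4 or more in 7.63%. These shares are per window, whereas 4 windows were searched for SLC19A1. The G+C content of the other members with a listed start is given below. The farthest upstream window and the window with 4 matches are given 5′ to 3′, with the matches in capitals. The first is at chr21:45563026-45563275 and the second at chr21:45542441-45542690.
SLC19A1, farthest upstream start: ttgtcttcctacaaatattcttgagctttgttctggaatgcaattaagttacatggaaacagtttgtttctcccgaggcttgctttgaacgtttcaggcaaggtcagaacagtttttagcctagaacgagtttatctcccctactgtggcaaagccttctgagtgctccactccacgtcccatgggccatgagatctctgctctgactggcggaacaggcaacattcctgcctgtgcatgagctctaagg
SLC19A1, start with 4 matches: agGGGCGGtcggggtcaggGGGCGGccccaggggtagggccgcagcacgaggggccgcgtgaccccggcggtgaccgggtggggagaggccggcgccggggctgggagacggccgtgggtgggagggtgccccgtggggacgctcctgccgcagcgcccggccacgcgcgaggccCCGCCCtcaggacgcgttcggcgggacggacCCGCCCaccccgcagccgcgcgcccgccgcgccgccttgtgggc

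Of SHMT1, SHMT2, MTHFD1 and MTHFD2, SHMT1 had the largest change at 80 nM. Its level was -0.85, -0.63 and -0.74 in untreated cells, -0.77, -0.65 and -0.74 at 8 nM, and 0.08, 0.05 and 0.20 at 80 nM. The untreated and 8 nM arrays overlapped and all 80 nM arrays were higher. SHMT1 rose by 0.85 at 80 nM (SE 0.08, adjusted p = 5.5e-05, 1.81-fold), and its change at 8 nM was 0.02 (95% confidence interval -0.17 to 0.21, adjusted p = 0.88). A second probe for the same transcript, NM_004169, gave -1.70, -1.60 and -1.61, then -1.80, -1.87 and -1.69, then -0.89, -1.14 and -0.97. It also rose at 80 nM, by 0.64 (adjusted p = 0.00041), with all 80 nM arrays above the rest, and its change at 8 nM was -0.15 (adjusted p = 0.28). From 8 to 80 nM the probes rose by 0.83 and 0.79. The window before the single start listed for SHMT1, chr17:18363551-18363800 on the minus strand, held 2 matches to GGGCGG and 2 to CCAAT, the latter present in 32% of promoters, and is given as that of a member that rose.
SHMT1: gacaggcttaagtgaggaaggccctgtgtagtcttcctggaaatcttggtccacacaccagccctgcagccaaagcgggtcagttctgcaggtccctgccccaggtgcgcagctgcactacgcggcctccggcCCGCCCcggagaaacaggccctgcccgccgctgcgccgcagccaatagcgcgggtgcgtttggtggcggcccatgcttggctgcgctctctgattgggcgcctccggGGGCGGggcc

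SHMT2, the mitochondrial partner of SHMT1, had levels of 4.28, 4.33 and 4.28 in untreated cells, 4.19, 4.43 and 4.10 at 8 nM, and 4.42, 4.52 and 4.54 at 80 nM. The 80 nM arrays lay above the untreated arrays but overlapped with 8 nM replicate 2. Its change did not pass at 8 nM (-0.06, adjusted p = 0.7) or at 80 nM (0.20, 95% confidence interval -0.01 to 0.41, adjusted p = 0.094). At 80 nM it was 0.26 higher than at 8 nM (adjusted p = 0.042), a call lost when any array other than 8 nM replicate 2 was left out (adjusted p between 0.056 and 0.13) and turned to -0.10 when scaled to the spike-ins. Against untreated cells SHMT2 did pass at 80 nM without 8 nM replicate 2 (adjusted p = 0.02) or with quantile normalization (adjusted p = 0.021), and was -0.08 when scaled to the spike-ins.

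MTHFD1, a multifunctional enzyme of the cytosolic folate cycle, rose at 80 nM. Its level was 3.86, 3.90 and 3.94 in untreated cells, 3.66, 3.78 and 3.66 at 8 nM, and 4.27, 4.27 and 4.25 at 80 nM. The groups did not overlap, the 8 nM arrays being lowest and the 80 nM arrays highest. The rise at 80 nM was 0.36 (SE 0.06, adjusted p = 0.0016, 1.28-fold) and from 8 to 80 nM 0.56 (adjusted p = 0.00016). At 8 nM the change was -0.20 (95% confidence interval -0.35 to -0.05) and missed the threshold over all genes (adjusted p = 0.078).

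MTHFD2, the mitochondrial dehydrogenase, showed no change that passed with the settings used throughout. Its level was 3.11, 3.15 and 3.02 in untreated cells, 3.15, 3.15 and 3.16 at 8 nM, and 3.02, 2.95 and 3.04 at 80 nM. The changes were 0.06 at 8 nM (95% confidence interval -0.09 to 0.21, adjusted p = 0.53) and -0.09 at 80 nM (interval -0.24 to 0.06, adjusted p = 0.26). All 80 nM arrays lay below all 8 nM arrays, with a difference of -0.15 (adjusted p = 0.071). That difference was -0.51 to -0.14 over 11 other settings and passed in 2 of them. MTHFD2L, a relative of MTHFD2, had no probe well above background on all arrays of any group. MTHFD1L, the mitochondrial formate-producing relative of MTHFD1, had 0.91, 0.97 and 0.86 in untreated cells, 0.51, 0.57 and 0.46 at 8 nM and 0.63, 0.44 and 0.61 at 80 nM. It fell at both concentrations, by 0.40 (adjusted p = 0.012) and 0.36 (adjusted p = 0.004), whereas of its other 2 probes 1 passed in the same direction at both concentrations (-0.41 and -0.24) and 1 did not (-0.02 and -0.12).

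TYMS rose modestly at 80 nM. Its level was 5.34, 5.31 and 5.30 in untreated cells, 5.36, 5.56 and 5.38 at 8 nM, and 5.57, 5.69 and 5.68 at 80 nM. Each treated group lay above the untreated arrays, by a small margin at 8 nM. The change was 0.12 at 8 nM (95% confidence interval -0.06 to 0.30, adjusted p = 0.32) and 0.33 at 80 nM (SE 0.08, adjusted p = 0.0064, 1.26-fold). The difference between the concentrations, 0.21 (adjusted p = 0.046), was lost when any array other than 8 nM replicate 2 was left out (adjusted p between 0.051 and 0.13) and in 6 of 11 other settings, and turned to -0.15 when scaled to the spike-ins.

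Of the ribonucleotide reductase subunits, RRM2 rose at 80 nM, and RRM1 did not pass at either concentration. RRM2 had levels of 0.94, 1.43 and 1.35 in untreated cells, 0.82, 0.66 and 1.14 at 8 nM, and 2.29, 2.22 and 2.28 at 80 nM. The untreated and 8 nM arrays overlapped, with untreated replicate 1 among the 8 nM values, and all 80 nM arrays were higher. RRM2 rose by 1.03 at 80 nM (SE 0.16, adjusted p = 0.00067, 2.04-fold) and by 1.39 from 8 to 80 nM (adjusted p = 0.00014, 2.62-fold). Its change at 8 nM was -0.36 (95% confidence interval -0.72 to -0.01, adjusted p = 0.16).

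RRM1, the large subunit, had levels of 3.85, 3.92 and 3.88 in untreated cells, 3.50, 3.89 and 3.40 at 8 nM, and 3.86, 3.85 and 3.85 at 80 nM. At 8 nM replicates 1 and 3 lay below all other arrays, while replicate 2 lay among the untreated ones. The change was -0.29 at 8 nM (95% confidence interval -0.56 to -0.01, adjusted p = 0.15) and -0.03 at 80 nM (interval -0.30 to 0.25, adjusted p = 0.85). RRM1 at 80 nM was 0.26 higher than at 8 nM without passing (adjusted p = 0.096).

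RRM2B, the small subunit induced by p53 after DNA damage, was chosen for comparison as the relative of RRM2. Its level was -1.87, -1.74 and -1.99 in untreated cells, -0.49, -0.53 and -0.52 at 8 nM, and -1.15, -1.19 and -1.11 at 80 nM. The 3 groups did not overlap, and the highest was 8 nM. RRM2B rose by 1.35 at 8 nM (SE 0.08, adjusted p = 5.4e-05, 2.56-fold) and by 0.71 at 80 nM (adjusted p = 0.0001, 1.64-fold), and it was 0.64 lower at 80 than at 8 nM (log2 change -0.64, adjusted p = 0.00021). RRM2 thus passed at 80 nM and was highest there, and RRM2B passed at both concentrations and was highest at 8 nM; the difference between the genes was not tested. A second RRM2B probe gave 0.51 and -0.38 and did not pass at either concentration (adjusted p = 0.52 and 0.54).

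RefSeq lists 2 starts for RRM2, on the plus strand of chromosome 2. The window before the upstream start, chr2:10122318-10122567, held 1 match to GGGCGG, and that before the other start, chr2:10122489-10122738, held 0 matches to it and 3 to CCAAT. The second is given, as that of the member with the largest rise at 80 nM, with no capitals since it holds no GGGCGG.
RRM2: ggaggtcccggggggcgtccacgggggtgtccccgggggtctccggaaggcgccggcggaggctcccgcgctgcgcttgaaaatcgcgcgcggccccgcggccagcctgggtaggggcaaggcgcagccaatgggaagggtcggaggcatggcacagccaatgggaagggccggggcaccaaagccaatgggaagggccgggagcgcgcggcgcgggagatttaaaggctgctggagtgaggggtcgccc
Over the 8 members with a listed start, the number of GGGCGG matches was 2 in each of the 2 TK1 windows, 1 for RRM1 and 0 for TYMS, MTHFD1 and MTHFD2. For SHMT2 no window was analysed here. The matches and the G+C content are a description of the letters, and their relation to the changes of the members was not tested.

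TK1 had levels of 5.87, 5.66 and 5.68 in untreated cells, 5.11, 5.58 and 5.19 at 8 nM, and 6.04, 6.13 and 6.17 at 80 nM. The 8 nM arrays were lowest and the 80 nM arrays highest, with no overlap between groups. TK1 rose by 0.38 at 80 nM (SE 0.13, adjusted p = 0.03, 1.30-fold), a call lost when untreated replicate 2, untreated replicate 3 or any of the 80 nM arrays was left out (adjusted p between 0.05 and 0.089) and when arrays were scaled to their median (adjusted p = 0.055). At 8 nM the change was -0.44 (95% confidence interval -0.73 to -0.15, adjusted p = 0.056), and from 8 to 80 nM TK1 rose by 0.82 (adjusted p = 0.00079, 1.77-fold). TK2, the mitochondrial thymidine kinase, had -4.85, -4.69 and -4.92 in untreated cells, -4.32, -4.27 and -4.47 at 8 nM and -3.94, -3.94 and -4.07 at 80 nM. It rose at both concentrations, by 0.47 (adjusted p = 0.013) and 0.84 (adjusted p = 9.7e-05).

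**Figure D4:**
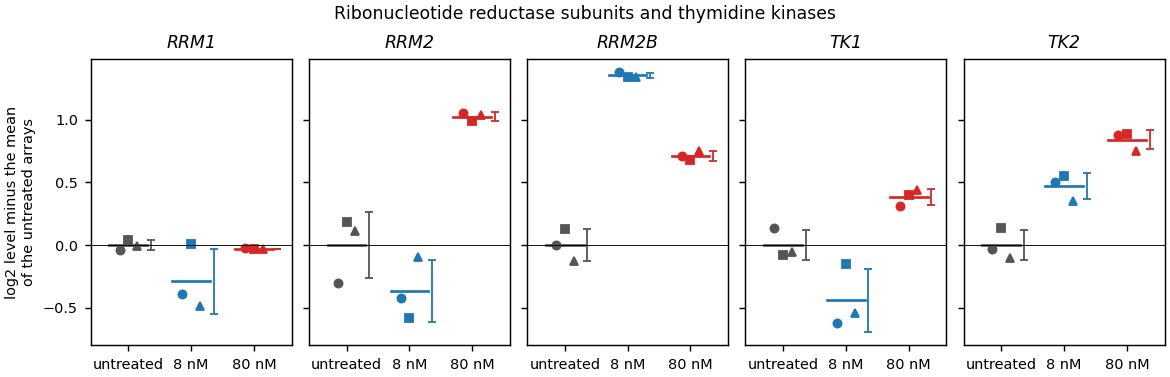
Log2 level minus the mean of the untreated arrays for the ribonucleotide reductase subunits RRM1, RRM2 and RRM2B and the thymidine kinases TK1 and TK2; points are arrays by replicate number, lines means and bars SDs. RRM2 is highest at 80 nM and RRM2B at 8 nM, and 8 nM replicate 2 (square) of RRM1 and TK1 lies nearer to the untreated arrays than the other 8 nM arrays do.

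The fall of SLC19A1 at 8 nM passed whichever array was left out. How many members passed at 8 nM depended on replicate 2 of that group. Without it 4 of the 9 members passed at 8 nM, with 18% of all genes passing. SLC19A1, MTHFD1, RRM1 and TK1 then all fell, the last 3 by 0.24, 0.43 and 0.58 (adjusted p = 0.026, 0.0047 and 0.0057). RRM1 was then also 0.41 higher at 80 than at 8 nM (adjusted p = 0.0011). Besides its lower number of probes above background, its 75th percentile was 833 intensity units, against 1144 and 1170 on the other 8 nM arrays. It had 496 outlier gene spots, against 385 and 394. Untreated replicate 1 was similar in both, at 832 and 481. What sets 8 nM replicate 2 apart was not tested.

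Since several members are S phase genes, 10 other genes of DNA replication and the G1/S transition were read beside them. At 8 nM 6 of the 10 fell, 1 rose and 3 did not pass, where 5.72% of all genes fell and 7.92% rose, and their median change was -0.36. Scaling arrays to their median ended 4 of these 7 calls (MCM2, MCM4, MCM6 and PCNA, adjusted p between 0.053 and 0.097), and none of the 7 passed when scaled to the spike-ins or with untreated and 8 nM replicates paired. At 80 nM 1 fell, 3 rose and 6 did not pass, with a median of 0.12, and from 8 to 80 nM 7 rose, 1 fell and 2 did not pass, against the 59% and 57.5% of all genes that passed. MCM2, part of the replicative helicase, fell by 0.33 at 8 nM (adjusted p = 0.017) and rose by 0.22 at 80 nM (adjusted p = 0.026), the latter not passing when scaled to the array median (adjusted p = 0.11) and turning to -0.06 when scaled to the spike-ins. MCM5, another subunit of that helicase, fell by 0.45 and by 0.93 (adjusted p = 0.024 and 0.00012). PCNA, the sliding clamp of the polymerases, rose by 0.33 and 0.80 (adjusted p = 0.026 and 5.2e-05). The part of the cell cycle distribution in the members' values was not tested.

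The wider pathway was read from 7 lists of 67 genes, of which 65 could be tested. At 8 nM 11 rose, 8 fell and 46 did not pass, with a median change of -0.05, and at 80 nM 23 rose, 10 fell and 32 did not pass, with a median of 0.10. Of the 11 rises at 8 nM, 9 were of genes well above background in both groups. Of all genes, 13.6% passed at 8 nM and 59% at 80 nM (33.3% rose and 25.7% fell), and the counts of each list below are to be read against these shares. With untreated and 8 nM replicates paired by number, 5 list genes passed at 8 nM in place of 19, with 3.63% of all genes passing in place of 13.6%. These were RRM2B, GLDC, AMT, PNP and ALDH1L1, so the other rises and falls of list genes at 8 nM given here did not pass when paired (adjusted p between 0.064 and 0.18). The paired fit used only the untreated and 8 nM arrays. On those arrays without pairing 6.97% of all genes passed, so the loss did not come with pairing alone. When scaled to the spike-ins, 3 list genes passed at 8 nM (RRM2B, GLDC and AMT) and 14 at 80 nM. Of the 23 that had risen at 80 nM, 4 then passed (PRPS2, ADSS1, CMPK1 and UCKL1), while FOLR1 and SLC29A2 had negative changes. From 8 to 80 nM 29 rose, 14 fell and 22 did not pass, with 57.5% of all genes passing (34.6% rose and 22.9% fell). Of the 14 falls, 12 were of genes well above background in both groups. When scaled to the spike-ins, 6 of the 29 rises had a negative change.

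**Figure D5:**
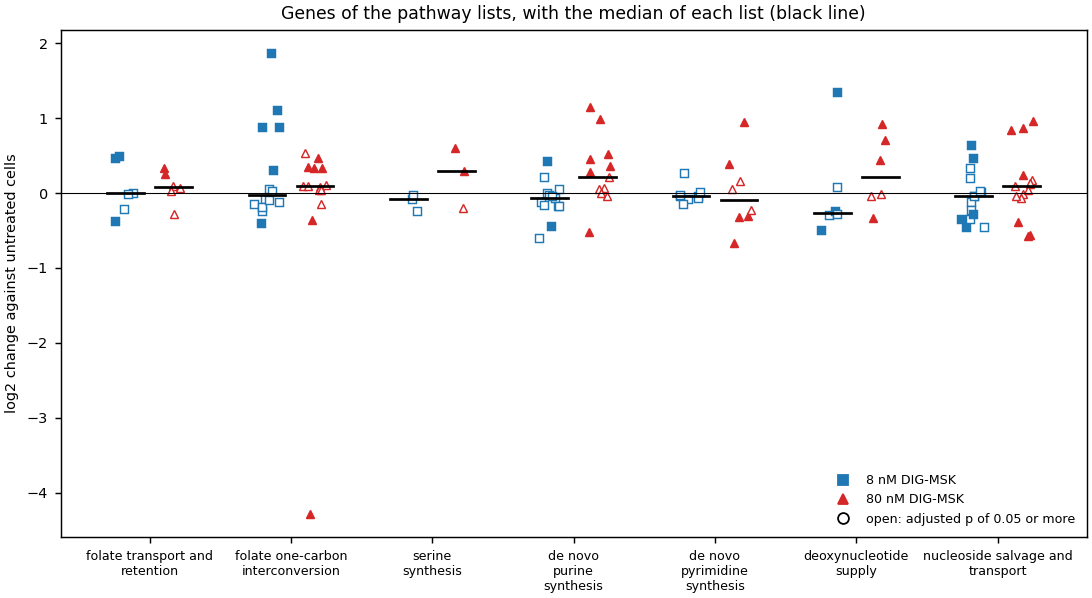
Log2 change against untreated cells of each gene of the 7 pathway lists at 8 nM (blue squares) and 80 nM (red triangles) DIG-MSK; filled symbols passed at an adjusted p under 0.05 and black lines are list medians. The list medians lie between -0.26 and 0.29, and GLDC at 80 nM, at -4.28, lies far below all other genes.

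Among the 6 genes of folate transport and retention beside SLC19A1, 2 rose and 1 fell at 8 nM, and 2 rose and 0 fell at 80 nM. The folate receptor FOLR1 had levels of -1.38, -1.53 and -1.67 in untreated cells, -1.09, -0.92 and -1.07 at 8 nM and -1.34, -1.18 and -1.30 at 80 nM. It rose by 0.50 (adjusted p = 0.012) and 0.25 (adjusted p = 0.047), opposite to the carrier, although the second value did not pass with quantile normalization or scaled to the array median (adjusted p = 0.065 and 0.08) and turned to -0.03 when scaled to the spike-ins. Of the enzymes that set the polyglutamate tail holding folates in the cell, GGH, which removes it, fell by 0.38 at 8 nM (adjusted p = 0.042), a call lost when scaled to the array median (adjusted p = 0.09) or to the spike-ins (adjusted p = 0.78). FPGS, which adds it, rose by 0.34 at 80 nM (adjusted p = 0.011), as did its second probe (0.45).

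Of the 14 genes of folate interconversion tested, 5 rose and 1 fell at 8 nM, and 4 rose and 2 fell at 80 nM. GLDC, the glycine decarboxylase of the glycine cleavage system, had 1.27, 1.40 and 1.17 in untreated cells, 1.95, 2.43 and 2.09 at 8 nM and -2.87, -3.14 and -3.01 at 80 nM. It rose by 0.88 at 8 nM (adjusted p = 0.0046) and fell by 4.28 at 80 nM (adjusted p = 1e-07, 19.5-fold lower), a change larger than that of any member. AMT, the aminomethyltransferase of the same system, rose at both concentrations, by 0.89 (adjusted p = 0.00044) and 0.46 (adjusted p = 0.0014). ALDH1L1 and FTCD, which passed at 8 nM, were not well above background in untreated cells and entered the test through the 8 nM arrays alone, so that 3 of the 5 rises were of genes above background in both groups. Their mean levels at 8 nM were 2.44-fold and 1.37-fold above a floor taken from the untreated arrays. That floor was the lowest level called well above background, or the gene's own level where higher. These folds make no allowance for the spread between arrays.

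Of the 3 enzymes of serine synthesis, which supplies the substrate of SHMT1 and SHMT2, none passed at 8 nM and 2 rose at 80 nM. PSAT1, the aminotransferase, had 5.46, 5.53 and 5.49 in untreated cells and 5.99, 6.12 and 6.17 at 80 nM. It rose by 0.60 (adjusted p = 0.00053), all 80 nM arrays being higher, and PHGDH rose by 0.29 (adjusted p = 0.0073).

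De novo purine synthesis had 1 gene risen and 1 fallen of 13 at 8 nM, and 6 risen and 1 fallen at 80 nM. ADSS1, an adenylosuccinate synthase, rose at both concentrations (0.42 and 0.99, adjusted p = 0.0058 and 7.7e-06), and GMPS, the GMP synthase, fell at 8 nM by 0.44 (adjusted p = 0.025). PRPS2, which makes phosphoribosyl pyrophosphate, rose by 1.14 at 80 nM (adjusted p = 0.00066), and IMPDH1, an IMP dehydrogenase, fell by 0.52 (adjusted p = 0.00077). In de novo pyrimidine synthesis 0 of 8 genes passed at 8 nM, and 2 rose and 3 fell at 80 nM. DHODH, the mitochondrial dehydrogenase of this route, had 1.84, 1.80 and 1.80 in untreated cells and 1.07, 1.15 and 1.20 at 80 nM and fell by 0.67 (adjusted p = 9e-05). CMPK1, the UMP/CMP kinase, rose by 0.95 on the probe used (adjusted p = 2.8e-05) and fell by 0.88 on its second probe (adjusted p = 0.0019), so its direction is uncertain.

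Of the other 6 genes of deoxynucleotide supply, 1 rose and 2 fell at 8 nM, and 3 rose and 1 fell at 80 nM. DUT, which makes dUMP for TYMS, had 6.15, 6.22 and 6.16 in untreated cells and 5.60, 5.81 and 5.64 at 8 nM. DUT fell by 0.49 at 8 nM (adjusted p = 0.0061) and its change at 80 nM was -0.02 (adjusted p = 0.85). DCTD, the dCMP deaminase that also feeds TYMS, rose by 0.92 at 80 nM (adjusted p = 2.8e-05), and DTYMK, the kinase that acts on the TYMS product, fell by 0.33 (adjusted p = 0.04), a call lost when scaled to the array median (adjusted p = 0.056). Nucleoside salvage had 2 risen and 3 fallen of 15 at 8 nM, and 4 risen and 3 fallen at 80 nM. PNP, the purine nucleoside phosphorylase, rose by 0.65 and HPRT1, the salvage enzyme of hypoxanthine and guanine, fell by 0.46 at 8 nM (adjusted p = 0.0015 and 0.0092). The uridine kinase family members UCKL1 and UCK2 moved oppositely at 80 nM, by 0.97 and -0.57 (adjusted p = 2.8e-05 and 0.00037).

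The genes whose pattern was most like that of SLC19A1 were sought over the 9 arrays among 12682 genes, by the root mean square difference of levels minus the untreated mean. They were INF2, EHMT1 and TFAM, with differences of 0.089, 0.096 and 0.101 on the log2 scale. Their changes at 8 nM were -0.75, -0.63 and -0.66 and at 80 nM -1.05, -0.98 and -1.10. For RRM2, added after its values were seen, they were SMC5, BMPR2 and BARD1, with differences of 0.091, 0.131 and 0.136 and changes at 80 nM of 1.06, 1.09 and 0.98. Both sets were chosen on these same arrays, so changes near those of SLC19A1 and RRM2 follow from the choice. For SLC19A1 the match used the probe that fell at both concentrations. Its second probe, which changed by -0.01 at 80 nM, was not matched.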

How the data were processed

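RNA of 9 cultures was hybridized to single-color Agilent arrays. The authors extracted the spots with Feature Extraction 10.7.3.1, and the deposited processed intensity is background-corrected but not scaled between arrays. A deposited table holds the authors' log2 values, which tracked the log2 median spot signal (correlations 0.9986 to 0.9998) and was used as an alternative only. The labels and the methods name different labeling kits. Groups and replicates came from the labels.

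Levels are log2 of the processed intensity minus the array's 75th percentile over gene spots, which lay between 832 and 1170 intensity units. No gene spot was saturated (0 on every array). Outlier spots were left out, spots of a probe averaged, and probes kept if well above background on all 3 arrays of a group (26433 of 42405). A gene was read by its probe with the highest mean level. A RefSeq table (GRCh38.p14) named 25715 of the 27245 probes that carry a RefSeq accession, and its coordinates were not used for the array. Promoter windows are RefSeq sequences of that assembly.

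The groups were compared with limma 3.58.1 in R 4.3.3 on all 9 arrays, with Benjamini-Hochberg adjustment over 21813 genes, after a test on simulated data. The number of arrays limits the precision. Same-numbered untreated and 8 nM arrays deviated together (correlations 0.113, 0.101 and 0.163), and other same-numbered arrays did not (-0.124 to 0.016). Some differently numbered arrays of 8 and 80 nM correlated as much, at 0.118 and 0.125. Alternatives were background correction (normexp, offset 50, on the median spot signal), other scalings, filters, probe choices, samples, pairing and leaving out each array; every kept probe read separately, and the pairing of only untreated and 8 nM arrays, were added after seeing the data. The members and gene lists were chosen with earlier results of these data known. List genes named are relatives of members and, per list and concentration, the largest rise and fall that passed without overlap and above background; PHGDH, ALDH1L1, FTCD, SLC29A2 and S phase genes other than MCM2 and PCNA were added after their values were seen. The values of 1 list gene and 1 marker gene are not reported here.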

Additional observations from a re-analysis of the deposited data

How the results depend on the processing

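Over the changes of the 9 members, 483 values under alternatives kept their direction and side of the threshold, 42 lost a pass, 14 gained one and 10 changed sign. Members passing at 8 nM numbered 1 as reported, 2 with normexp, with quantile normalization, with the authors' log2 values and with probes above background on all 9 arrays (TK1 joining, adjusted p between 0.019 and 0.042), 0 when scaled to the spike-ins, and 1 to 4 on leaving out an array. At 80 nM 6 passed, against 1 when scaled to the spike-ins, 3 by the study's rule and 5 to 7 on leaving out an array, and between concentrations 7, against 2, 3 and 5 to 8. Of the pathway lists 19 genes passed at 8 nM, against 3 when scaled to the spike-ins, 11 without a filter on dim probes, 11 with only the 2 groups compared, 5 with the replicate block over those groups, 7 by the study's rule and 11 to 23 on leaving out an array. At 80 nM 33 passed, against 14 when scaled to the spike-ins, 11 by the study's rule and 27 to 36 on leaving out an array, and between concentrations 43, against 17, 15 and 36 to 45.

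Changes of sign when scaled to the spike-ins, none passing, were those of RRM1 (-0.10), SHMT2 (-0.10) and TYMS (-0.15) between concentrations and of SHMT2 at 8 nM (0.025) and 80 nM (-0.078). SHMT1 at 8 nM turned to -0.066 with the mean of its probes, to -0.036 without untreated replicate 1 and to -0.015 without 8 nM replicate 2 (-0.036 to 0.077 on leaving out an array), SHMT2 at 8 nM to 0.013 without 8 nM replicate 3 (-0.15 to 0.013), and SLC19A1 between concentrations to 0.19 with the mean of its probes. The replicate block over all 9 arrays ended 2 calls, of TK1 at 80 nM (adjusted p = 0.052) and TYMS between concentrations (adjusted p = 0.062), and changed no other call of a member. Over all genes at 8 nM, 2975 passed as reported, 381 when scaled to the spike-ins, 1790 without a filter, 1521 with only the 2 groups compared, 792 with those groups paired, 1546 by the study's rule and 1648 to 3930 on leaving out an array. At 80 nM 12867 passed, against 6906 when scaled to the spike-ins and 7655 by the study's rule, and between concentrations 12552, against 6498 and 7332. The cause of these differences was not tested.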
